A study of Mus musculus with 12 samples.

Results

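RNA-seq of cultured mouse bone-marrow-derived dendritic cells was read here for 35 genes of the B lineage that lie outside the immunoglobulin loci. The genes were taken as listed symbols and make up 35 of the 37991 genes in the count table. They were sorted here by the stage they are known for, with 10 progenitor genes, 18 genes of mature B cells and 7 genes of plasma cells. The question was which of these stages differed between genotypes.

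All cells carried the C57BL/6 strain label and fell into 4 groups of 3 libraries. The groups were cells labelled Vav1/2/3-/- (KO) given curdlan for 3 hours, KO cells left unstimulated, wild-type (WT) cells given curdlan for 3 hours, and WT cells left unstimulated. Vav proteins are guanine nucleotide exchange factors that relay signals from antigen receptors and other Syk-coupled receptors, and curdlan is a beta-glucan particle bound by Dectin-1. The labels do not describe the deleted alleles, the number of mice, or whether libraries of a group came from separate animals or cultures, so p-values measure the spread between these libraries, which may be technical.

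B cells arise in the marrow, the organ these cultures were started from. The transcription factors EBF1 and PAX5 commit a progenitor to the lineage, the RAG recombinase and the enzyme TdT assemble the heavy chain gene, and a surrogate light chain made of VPREB1 and IGLL1 tests that chain at the surface. A mature B cell carries the B cell receptor with its signalling chains CD79A and CD79B, along with inhibitory lectins, complement and Fc receptors and receptors for survival and homing. A plasma cell switches on the repressor BLIMP1, encoded by Prdm1, and expands its secretory machinery. Several of the 35 genes are not private to B cells: 13 of them, Il7r, Ly6d, Fcamr, Fcrla, Blnk, Spib, Bach2, Cd37, Mzb1, Derl3, Prdm1, Eaf2 and Cd38, are also known from dendritic cells, other myeloid cells, other lymphocytes or other tissues.

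Library totals ran from 41421718 to 61217861 counts, and values are given in CPM, counts scaled to library size after TMM adjustment, as mean ± SD over 3 libraries. The targeted genes did not check the genotype label. Vav2 averaged 282 ± 6.0 CPM in unstimulated libraries labelled KO and 67.3 ± 3.1 CPM in unstimulated WT libraries. Vav1 was higher in KO by 0.67 ± 0.10 without curdlan and by 0.63 ± 0.10 with it on the log2 scale (SE). Vav3 was higher by 0.48 ± 0.15 without curdlan and did not pass the test with it. Counts per gene cannot show the loss of an exon. KO and WT therefore mean the labels throughout. Each group filled a sequencing lane of its own, and lane effects cannot be told apart from group differences. The dendritic cell markers Itgax, which encodes CD11c, and H2-Ab1, a class II MHC chain, were abundant in all 4 groups and differed between genotypes in opposite directions. Itgax averaged 788 ± 76 CPM in unstimulated KO and 1488 ± 90 CPM in unstimulated WT libraries, and H2-Ab1 averaged 1875 ± 328 CPM in unstimulated KO and 734 ± 34 CPM in unstimulated WT libraries. The filter on low counts kept 30 of the 35 genes, which were tested. Of these 30, 10 passed through their WT libraries alone (Vpreb3, Ly6d, Cd79a, Ms4a1, Cr2, Fcmr, Fcamr, Mzb1, Pou2af1 and Fcrl5), with fewer than 3 of the 6 KO libraries at the filter level of 0.196 CPM, so these had to be lower in KO and the counts below are a description of the genes that passed.

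Promoter sequences of 4 genes are shown, chosen after their values were seen, to set genes with few reads in KO libraries (Cd79a, Pou2af1 and Vpreb3) beside one that did not pass the test in either state (Cd22). Each runs from 250 bases before to 50 bases after a RefSeq transcript start on the strand of the gene, in GRCm38.p6, with capitals marking a match to one of the motifs given in the next paragraph.
Cd79a promoter, chr7:24897247-24897546, plus strand: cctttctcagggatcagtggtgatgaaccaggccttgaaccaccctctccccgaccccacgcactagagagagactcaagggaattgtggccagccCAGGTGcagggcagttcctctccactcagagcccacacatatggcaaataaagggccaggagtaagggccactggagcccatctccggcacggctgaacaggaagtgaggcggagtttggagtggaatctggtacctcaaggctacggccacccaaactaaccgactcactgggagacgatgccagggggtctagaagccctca
Pou2af1 promoter, chr9:51213440-51213739, plus strand: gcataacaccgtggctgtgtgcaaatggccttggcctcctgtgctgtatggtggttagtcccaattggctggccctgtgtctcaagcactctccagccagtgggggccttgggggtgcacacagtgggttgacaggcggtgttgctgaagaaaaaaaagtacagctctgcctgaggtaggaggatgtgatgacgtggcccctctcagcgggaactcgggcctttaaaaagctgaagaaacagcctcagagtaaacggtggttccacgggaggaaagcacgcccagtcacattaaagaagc
Vpreb3 promoter, chr10:75948050-75948349, plus strand: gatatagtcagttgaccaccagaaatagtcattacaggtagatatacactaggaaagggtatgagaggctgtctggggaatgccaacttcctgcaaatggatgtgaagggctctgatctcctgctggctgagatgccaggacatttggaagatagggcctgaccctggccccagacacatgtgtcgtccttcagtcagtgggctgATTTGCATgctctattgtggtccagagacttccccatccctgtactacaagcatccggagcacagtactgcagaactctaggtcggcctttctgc
Cd22 promoter, chr7:30878979-30879278, minus strand: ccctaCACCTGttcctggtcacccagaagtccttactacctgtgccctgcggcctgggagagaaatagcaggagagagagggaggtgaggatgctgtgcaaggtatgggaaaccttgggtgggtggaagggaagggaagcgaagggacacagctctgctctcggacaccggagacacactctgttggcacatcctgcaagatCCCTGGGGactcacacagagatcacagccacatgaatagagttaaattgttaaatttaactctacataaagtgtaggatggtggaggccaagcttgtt

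RefSeq promoters were at hand for 30 of the 35 genes, as 36 windows of 300 bases. The windows were searched on both strands for CCCNNGGG, the paired half-sites at the centre of the EBF1 motif, for the octamer ATGCAAAT, bound by OCT1 and OCT2 with the coactivator encoded by Pou2af1, and for the E-box CAGGTG, bound by E proteins. The EBF1 letters stood in 13.7% of all 32851 promoters and in 5 of the 36 windows, those of Bank1, Cd22, Eaf2, Igll1 and Spib. In Cd22 they began 48 bases before the start. The octamer stood in 1.74% of all promoters and in those of Vpreb3, 45 bases before the start on the reverse strand, and Blnk, 130 bases before it. The E-box stood in 20.2% of all promoters and in 17 of the 36 windows, among them that of Cd79a, 154 bases before the start, and that of Cd22, 245 bases before it on the reverse strand. The Pou2af1 window held no match to any of the 3 motifs. A match describes letters in a window and is no evidence of binding.

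In unstimulated cells, 21 of the 30 tested genes were lower in KO than in WT libraries and 4 were higher at an adjusted p under 0.05 (edgeR quasi-likelihood F-test with Benjamini-Hochberg adjustment over 18981 genes), whereas 23.3% of all tested genes were lower and 21.1% higher. With curdlan, 19 were lower and 3 higher, against 26.8% lower and 24.7% higher among all tested genes. In each state the KO and WT libraries of every lower gene did not overlap. How often this held among all genes called lower was not counted, so it describes the calls and is not particular to these genes. The lower genes included 10 that were lower by 8-fold or more without curdlan and 12 with it, against 1.54% of all tested genes in each state. All but Cd79b of the 10, and all but Cd79b, Fcrla and Cxcr5 of the 12, passed the filter through WT libraries alone. Those genes had to be lower in KO, so the shares of all tested genes are no measure for them. The same genes, and Cr2, also count among the 21 and 19 lower genes and in the medians that follow. The median log2 fold change of the 30 genes was -2.05 without curdlan and -2.36 with it, and that of all tested genes was -0.01 and 0.01; setting genes without a KO read at their bound left both medians of the 30 genes in place. In these bulk samples fewer cells of a type and less RNA per cell cannot be told apart.

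**Figure D1:**
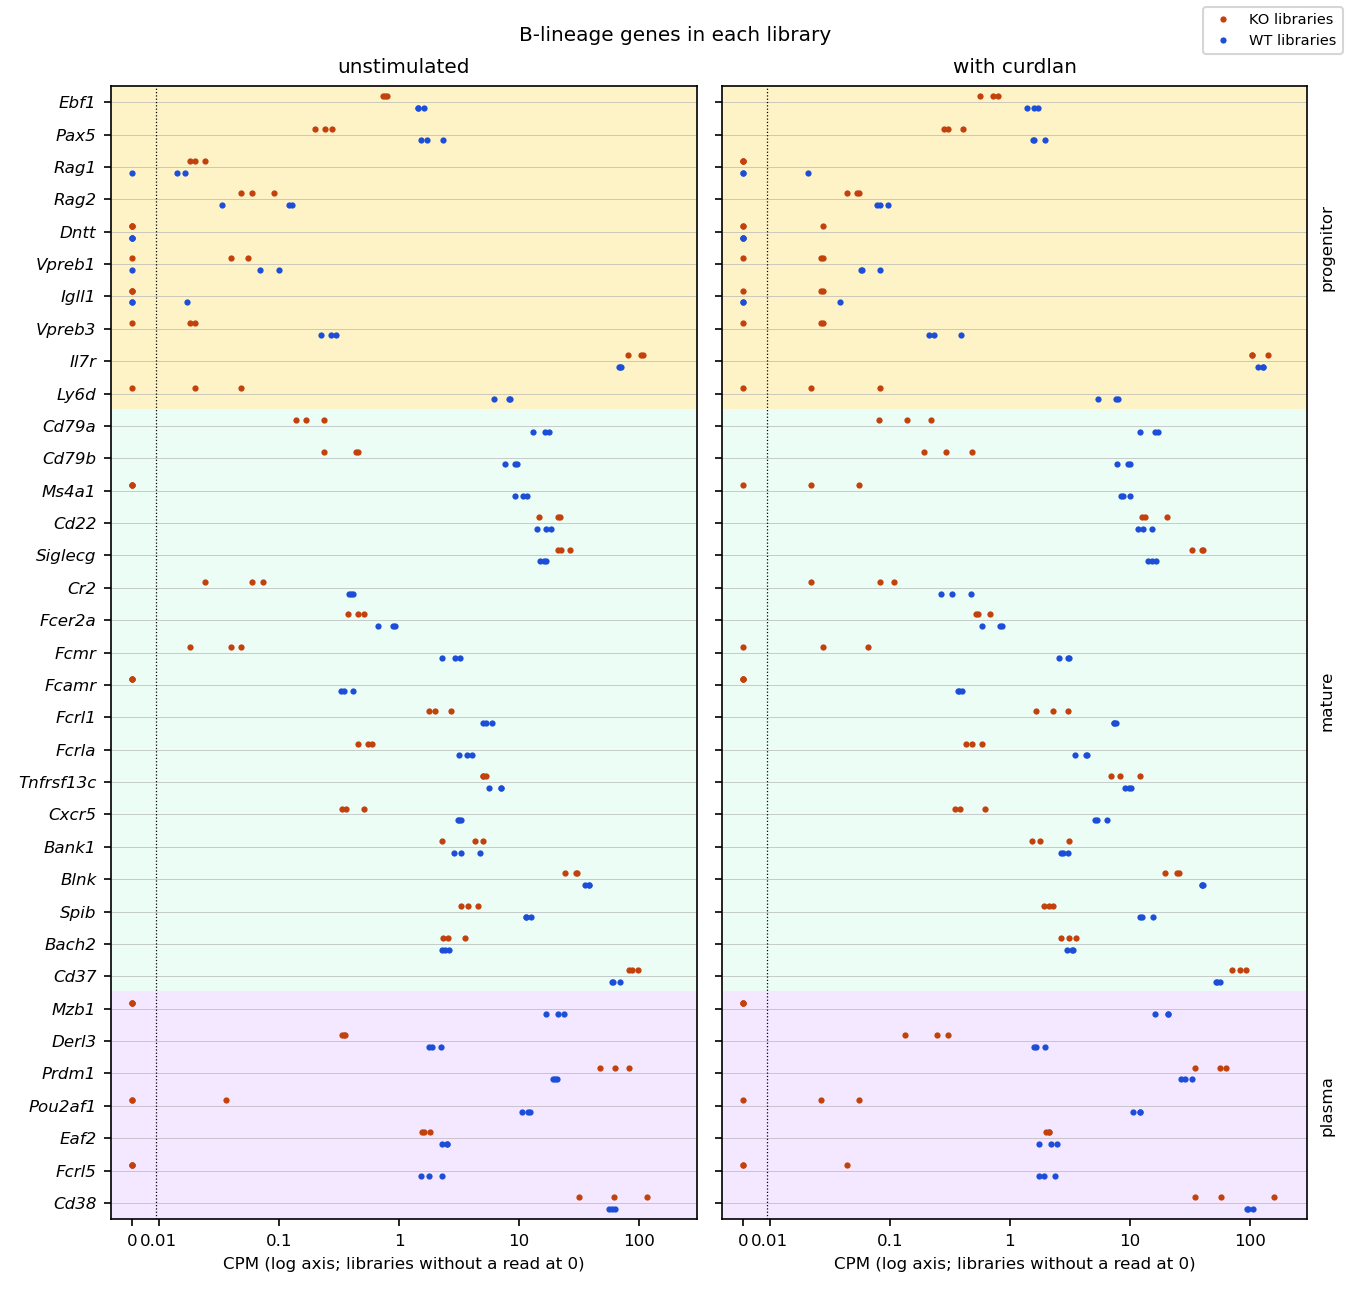
Level of each of the 35 genes in each library, in CPM on a log axis, with KO libraries drawn above WT libraries in every row and unstimulated cells on the left; points at 0 are libraries without a read, and shading separates progenitor, mature and plasma cell genes. Mzb1 stands at 0 in all KO libraries and between 16.2 and 23.7 CPM in all WT libraries, while Cd22, Bank1 and Bach2 overlap between the genotypes in both panels.

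The same genes made up most of both lists: 19 genes were lower in KO in both states and 3 were higher in both. Fcer2a and Eaf2 were lower past the threshold without curdlan alone, and Il7r was higher past the threshold without curdlan alone. Cd22, Tnfrsf13c, Bank1, Bach2 and Cd38 passed in neither state. For the genotypes under curdlan, 32 of the 35 genes carried an adjusted p in the authors' deposited table, and at 0.05 the authors' deposited table held the same 19 genes lower and the same 3 higher; it rests on the same libraries and is not independent.

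Among progenitor genes, both commitment factors were lower in KO in each state. The commitment factor Ebf1 was measured at 0.735, 0.794 and 0.769 CPM in unstimulated KO libraries, against 1.61, 1.45 and 1.45 CPM in unstimulated WT libraries. With curdlan it lay at 0.723, 0.802 and 0.564 CPM in KO, against 1.72, 1.58 and 1.399 CPM in WT. Every KO library lay below every WT library, and Ebf1 fell by 0.97 ± 0.15 on the log2 scale (SE) without curdlan and by 1.16 ± 0.16 with it. KO libraries held 50.6% of its WT level without curdlan and 44.6% with it.

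Pax5, which holds B cells to their lineage, was measured at 0.199, 0.241 and 0.275 CPM in unstimulated KO libraries, against 1.53, 2.32 and 1.71 CPM in unstimulated WT libraries. With curdlan its KO libraries held 0.285, 0.304 and 0.403 CPM and its WT libraries 1.58, 1.97 and 1.57 CPM. The genotypes did not overlap, with log2 fold changes of -2.94 ± 0.23 and -2.37 ± 0.23 (SE; edgeR, adjusted p = 1.12e-06 and 6.25e-06). An antisense gene covers 7.2% of the exon bases of Pax5, and without strand information its reads cannot be told from those of Pax5.

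Vpreb3, whose product associates with the pre-B cell receptor, had 2 reads in all unstimulated KO libraries and 50 in the unstimulated WT libraries, a level 19.5-fold lower in KO with a 95% exact counting interval from 5.12 to 165. With curdlan it had 2 and 42 reads. Ly6d, a surface protein of B cell-committed lymphoid progenitors, had 3 reads over the unstimulated KO libraries and 1431 over the WT libraries, which held 8.19, 8.36 and 6.13 CPM; this was 372-fold lower in KO, with a counting interval from 127 to 1804. With curdlan the KO libraries held 4 reads and the WT libraries 1053. Intervals of this kind cover counting error only.

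The genes that act before the receptor is complete had few reads in either genotype. Dntt, which encodes TdT, had no read in unstimulated KO or WT libraries, which allows up to 0.0205 CPM in KO and 0.016 CPM in WT at a floor of 3 counts over a group. With curdlan it had 1 read in KO and 0 in WT. The recombinase gene Rag1 had 3 reads in unstimulated KO and 2 in unstimulated WT libraries, and its partner Rag2 had 10 and 18.

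With curdlan, Rag1 had 0 reads in KO and 1 in WT, and Rag2 had 6 in KO and 13 in WT. The surrogate light chain genes were as sparse: Vpreb1 had 5 reads in unstimulated KO and 11 in unstimulated WT libraries, and Igll1 had 0 and 1. With curdlan Vpreb1 had 2 reads in KO and 10 in WT, and Igll1 had 2 in each genotype. None of these 5 genes was tested, and a difference in them was not detectable at this depth.

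Il7r, the receptor chain for interleukin 7 that drives pro-B cells and is also known from T cells and activated dendritic cells, was higher in KO without curdlan, whereas the other tested progenitor genes were lower. Without curdlan it lay at 104, 108 and 79.9 CPM in KO libraries, against 68.6, 70.4 and 68.5 CPM in WT libraries. It rose in KO by 0.49 ± 0.13 on the log2 scale (edgeR, adjusted p = 0.00813), a call that was lost when libraries were scaled by their size alone (0.31, adjusted p = 0.0641). With curdlan its KO libraries at 141, 103 and 104 CPM overlapped its WT libraries at 129, 127 and 116 CPM. Of the 5 tested progenitor genes, 4 were thus lower in KO in both states, and 1 was higher without curdlan. Among all tested genes, 23.3% were lower and 21.1% higher without curdlan, and 26.8% and 24.7% with it. The other 5 progenitor genes, Rag1, Rag2, Dntt, Vpreb1 and Igll1, were not tested. Of the 4 lower genes, Vpreb3 and Ly6d passed the filter through WT libraries alone. Both had to be lower in KO, and the shares are no measure for them. The 4 lower genes need not be confined to progenitors, so the counts do not show that this stage differed.

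Of the 18 mature B cell genes, which all passed the filter, 12 were lower and 2 higher in KO without curdlan, and 11 were lower and 2 higher with it. The lower ones included both signalling chains of the B cell receptor and the marker CD20. Among all tested genes, 23.3% were lower and 21.1% higher without curdlan, and 26.8% and 24.7% with it. Cd79a, Ms4a1, Cr2, Fcmr and Fcamr passed the filter through WT libraries alone and had to be lower in KO. The shares are no measure for them, and the counts do not show that this stage differed. Cd79a (ENSMUSG00000003379, GRCm38 chr7:24897381-24902197, plus strand, protein-coding) was measured at 0.139, 0.169 and 0.238 CPM in unstimulated KO libraries, against 17.7, 16.4 and 13.0 CPM in unstimulated WT libraries. With curdlan it lay at 0.219, 0.138 and 0.081 CPM in KO and at 17.0, 16.0 and 12.1 CPM in WT. Its log2 fold change was -6.39 ± 0.25 without curdlan and -6.61 ± 0.26 with it (SE), given as a description since Cd79a passed the filter through its WT libraries alone.

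Cd79b, the partner chain, was measured at 0.238, 0.457 and 0.439 CPM in unstimulated KO libraries, against 9.28, 9.51 and 7.64 CPM in unstimulated WT libraries. It kept more of its level than Cd79a: the KO libraries held 4.24% of the WT level without curdlan, with a counting interval from 3.18% to 5.55%, whereas Cd79a held 1.17%, with an interval from 0.767% to 1.70%. With curdlan the shares were 3.67% for Cd79b and 1.01% for Cd79a. Ms4a1 (ENSMUSG00000024673, chr19:11249675-11266241, minus strand), which encodes CD20, had no read in unstimulated KO libraries and 1976 reads in WT libraries. At a floor of 3 counts it was at least 513-fold lower, and its exact counting interval began at 417-fold. With curdlan it had 3 reads in KO and 1375 in WT.

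The receptors that read antibody and complement were also low in KO. Fcmr, the receptor for IgM, had 5 reads in unstimulated KO libraries and 533 in WT, where it lay at 3.20, 2.93 and 2.30 CPM; with curdlan it had 4 and 439. Fcamr, which binds IgA and IgM, had no read in any KO library and 69 reads in WT without curdlan and 58 with it, and was at least 17.9-fold and 15.2-fold lower. Cr2, the complement receptor of follicular B cells, had 8 reads in KO and 75 in WT without curdlan, and 8 and 54 with it, for log2 fold changes of -2.82 ± 0.41 and -2.36 ± 0.43.

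The low-affinity IgE receptor gene Fcer2a was lower by less: it lay at 0.378, 0.457 and 0.513 CPM in unstimulated KO libraries, against 0.928, 0.900 and 0.674 CPM in WT. It fell by 0.89 ± 0.21 on the log2 scale without curdlan (edgeR, adjusted p = 0.00485), and the groups overlapped with curdlan (-0.37 ± 0.22, adjusted p = 0.181). The Fc receptor-like genes Fcrl1 and Fcrla fell in both states. Fcrl1 had log2 fold changes of -1.33 ± 0.19 without curdlan and -1.67 ± 0.19 with it, and Fcrla -2.76 ± 0.17 and -3.02 ± 0.18. Cxcr5, the homing receptor for B cell follicles, lay at 0.338, 0.361 and 0.513 CPM in unstimulated KO libraries, against 3.25, 3.18 and 3.13 CPM in WT, with log2 fold changes of -2.96 ± 0.20 without curdlan and -3.64 ± 0.20 with it.

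An adaptor gene and a transcription factor gene known also from dendritic cells were lower in KO in both states. Blnk, the adaptor that links Syk to phospholipase C, lay at 30.2, 29.5 and 24.3 CPM in unstimulated KO libraries, against 38.0, 38.2 and 35.2 CPM in WT. It fell by 0.41 ± 0.10 on the log2 scale without curdlan and by 0.80 ± 0.10 with it, so that most of its level stayed in KO cells. Spib, a factor of B cells and plasmacytoid dendritic cells, lay at 4.55, 3.76 and 3.30 CPM in unstimulated KO libraries, against 11.3, 12.5 and 11.5 CPM in WT. With curdlan it lay at 1.93, 2.30 and 2.12 CPM in KO, against 12.1, 15.7 and 12.5 CPM in WT. Spib fell by 1.61 ± 0.13 on the log2 scale without curdlan and by 2.67 ± 0.14 with it.

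Siglecg and Cd37 were higher in KO in both states. Siglecg, an inhibitory lectin of B cells, lay at 22.4, 26.6 and 21.1 CPM in unstimulated KO libraries, against 16.6, 16.0 and 14.8 CPM in WT. It rose by 0.56 ± 0.11 on the log2 scale without curdlan and by 1.30 ± 0.11 with it (edgeR, adjusted p = 0.00105 and 1.98e-06). Cd37, a tetraspanin of B cells and other leukocytes, lay at 86.8, 82.8 and 97.3 CPM in unstimulated KO libraries, against 68.6, 60.1 and 59.6 CPM in WT, and rose by 0.50 ± 0.10 without curdlan and by 0.60 ± 0.10 with it.

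Cd22, the other inhibitory lectin, was abundant in both genotypes: 21.8, 21.0 and 14.7 CPM in unstimulated KO libraries, against 18.3, 16.7 and 14.0 CPM in WT. The groups overlapped, with 0.23 ± 0.19 without curdlan and 0.23 ± 0.20 with it on the log2 scale; an antisense gene covers 9.5% of its exon bases. Tnfrsf13c, the receptor for the survival factor BAFF, lay at 5.33, 4.96 and 5.03 CPM in unstimulated KO libraries, just below the 7.04, 7.10 and 5.61 CPM in WT (-0.37 ± 0.17; edgeR, adjusted p = 0.106). It passed the threshold when the 2 unstimulated groups were fitted alone (adjusted p = 0.0276) and when scaled by library size alone (-0.55, adjusted p = 0.0184). Bank1, an adaptor of the receptor, averaged 3.85 ± 1.4 CPM in unstimulated KO and 3.63 ± 0.99 CPM in unstimulated WT libraries, and Bach2, a repressor of plasma cell fate, 2.81 ± 0.64 and 2.42 ± 0.17 CPM.

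**Figure D2:**
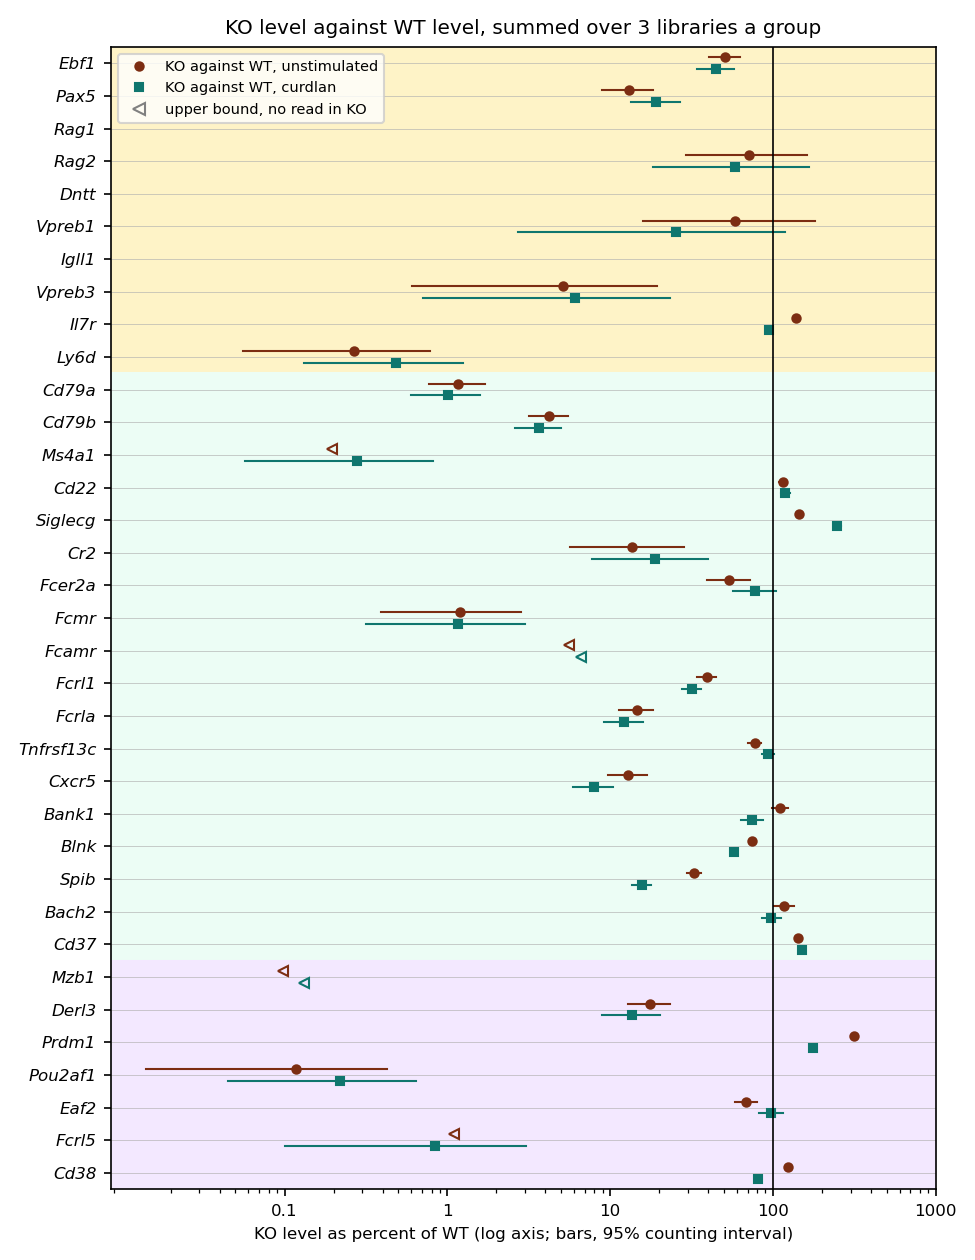
Level in KO as a percentage of the level in WT, on a log axis, from reads summed over the 3 libraries of each group. Circles are without curdlan and squares with it. Bars are exact 95% counting intervals, which leave out the spread between libraries. Open triangles are upper bounds at a floor of 3 counts for genes without a KO read. Dntt, Rag1 and Igll1, with no more than 3 reads in either genotype, have no point. Points reach from 0.117% for Pou2af1 without curdlan to 316% for Prdm1 without curdlan, and genes of all 3 stages lie both far below and near 100%.

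Among the 7 plasma cell genes, 5 were lower and 1 higher in KO without curdlan, and 4 were lower and 1 higher with it. The shares of all tested genes were 23.3% lower and 21.1% higher without curdlan, and 26.8% and 24.7% with it. Several of the 7 genes are not confined to plasma cells, so these counts do not show that this stage differed. Of the lower genes, Mzb1, Pou2af1 and Fcrl5 passed the filter through WT libraries alone. These had to be lower in KO, and the shares are no measure for them. Mzb1 (ENSMUSG00000024353), a chaperone of the endoplasmic reticulum that aids antibody assembly and is also known from plasmacytoid dendritic cells, had no read in any KO library. The unstimulated WT libraries held 23.7, 21.1 and 16.9 CPM, and the WT libraries given curdlan held 20.7, 20.6 and 16.2 CPM. From 3908 and 2895 WT reads it was at least 1015-fold lower in KO without curdlan and at least 757-fold lower with it. Another gene on the same strand covers 57.2% of its annotated exon bases, so its counts may leave out reads that fit both.

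Pou2af1 (ENSMUSG00000032053, chr9:51213708-51240080, plus strand), the B cell coactivator of octamer factors, had 2 reads in unstimulated KO libraries and 2189 in WT, where it lay at 12.3, 11.9 and 10.6 CPM. It was 853-fold lower in KO, with a counting interval from 236 to 7046. With curdlan it had 3 reads in KO and 1753 in WT. Fcrl5, an Fc receptor-like protein of B cells and plasma cells, had no read in unstimulated KO libraries and 351 in WT. At a floor of 3 counts it was at least 91.2-fold lower, and its exact counting interval began at 73.7-fold. With curdlan it had 2 and 304 reads.

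Derl3, a part of the machinery that clears misfolded proteins from the endoplasmic reticulum, lay at 0.358, 0.337 and 0.348 CPM in unstimulated KO libraries, against 2.25, 1.88 and 1.78 CPM in WT. It fell by 2.50 ± 0.20 on the log2 scale without curdlan and by 2.87 ± 0.23 with it. Eaf2, an elongation factor of germinal centre and plasma cells, fell by 0.55 ± 0.13 without curdlan (edgeR, adjusted p = 0.00535) and overlapped between genotypes with it (-0.04 ± 0.14).

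Prdm1, which encodes the repressor BLIMP1 that plasma cells switch on and dendritic cells also use, went the other way. Without curdlan it lay at 62.8, 82.4 and 46.8 CPM in KO libraries, against 19.1, 20.5 and 19.8 CPM in WT. With curdlan it lay at 63.3, 56.2 and 34.4 CPM in KO, against 33.1, 28.7 and 26.6 CPM in WT. All KO libraries lay above all WT libraries, and it rose by 1.69 ± 0.22 on the log2 scale without curdlan and by 0.80 ± 0.22 with it (edgeR, adjusted p = 5.97e-05 and 0.00807).

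Cd38, an ectoenzyme of plasma cells that myeloid cells also express, differed more between KO libraries than between genotypes. Without curdlan KO libraries 1, 2 and 5 held 61.9, 31.4 and 116 CPM, against 62.7, 58.8 and 55.6 CPM in WT. With curdlan KO libraries 2, 4 and 5 held 35.1, 57.4 and 159 CPM, against 107, 94.7 and 95.8 CPM in WT. In both states KO library 2 was the lowest of its group and KO library 5 the highest, and Cd38 passed no main test. Without KO curdlan library 5 it was called lower in KO with curdlan (-1.10, adjusted p = 0.0365).

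The 13 genes listed above as known from other cells were counted apart from the other 22. That sorting rests on background and not on these data: Siglecg and Cd22, which are among the 22, averaged 23.4 and 19.2 CPM in unstimulated KO libraries. Of the 22 genes, 17 were tested; 13 of these were lower and 1 higher in KO without curdlan, and 12 were lower and 1 higher with it. Of the 13 shared genes, 8 were lower and 3 higher without curdlan, and 7 were lower and 2 higher with it. Among all tested genes, 23.3% were lower and 21.1% higher without curdlan, and 26.8% and 24.7% with it. The median log2 fold change was -2.94 without curdlan and -2.37 with it for these 17 genes, and -0.55 and -0.80 for the 13 shared ones. Of the 17 genes, Vpreb3, Cd79a, Ms4a1, Cr2, Fcmr, Pou2af1 and Fcrl5 passed the filter through WT libraries alone. Of the 13 shared ones, Ly6d, Fcamr and Mzb1 did so. Those genes had to be lower in KO, so the shares of all tested genes are no measure for them. Both medians rest in part on such genes. Which set moved further was not tested.

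Per kilobase of exon, the genes that stood highest in unstimulated KO libraries were Cd37 at 25.3 ± 2.1, Il7r at 20.9 ± 3.3, Cd38 at 17.9 ± 11 and Prdm1 at 11.5 ± 3.2 CPM per kb. In unstimulated WT libraries they were Cd37 at 17.8 ± 1.4, Mzb1 at 16.9 ± 2.8, Cd38 at 15.2 ± 0.91 and Il7r at 14.8 ± 0.23 CPM per kb, 4 levels whose neighbours lay within their spread. Cd79a at 10.8 ± 1.7 and Ly6d at 10.2 ± 1.7 CPM per kb came next in WT, and lay at 0.125 ± 0.035 and 0.0305 ± 0.033 CPM per kb in KO. The progenitor factors Pax5 and Ebf1 lay lower, at 0.0269 ± 0.0043 and 0.0785 ± 0.0030 CPM per kb in KO and at 0.209 ± 0.047 and 0.154 ± 0.0096 CPM per kb in WT.

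The WT libraries also differed among themselves in a recurring way. Each of the 30 tested genes had 10 or more reads in every WT library; 24 were lowest in library 4 without curdlan, 21 were lowest in library 4 with curdlan, and 17 were so in both states. Cd79a, Mzb1 and Ly6d were among these 17. The share of all tested genes that were lowest in WT library 4 was not counted, so the pattern may not be particular to these genes. Deviations from the group means over all tested genes also recurred by number between the WT states. The correlations were 0.395, 0.239 and 0.129 for numbers 1, 2 and 4, against -0.29 to 0.082 for unlike numbers. The authors' deposited comparison numbers the WT curdlan libraries otherwise, so the match by number is uncertain.

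With curdlan against without it, few of the 35 genes moved in either genotype. In KO libraries, 2 of the 30 tested genes were higher and 1 lower past the threshold, against 14% higher and 14.6% lower among all tested genes. In WT libraries, 3 were higher and 0 lower, against 11.4% higher and 8.4% lower; at an unadjusted p under 0.05, 1 was lower, and DESeq2 and limma-voom also called 0 lower. None of the genes nearly without reads in KO passed the test in WT, where Cd79a changed by -0.06 ± 0.15, Pou2af1 by -0.0023 ± 0.15 and Mzb1 by -0.11 ± 0.15 on the log2 scale.

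In WT, Il7r rose to 129, 127 and 116 CPM with curdlan, against 68.6, 70.4 and 68.5 CPM without it (0.84 ± 0.13; edgeR, adjusted p = 0.00075). Cxcr5 rose to 5.27, 6.45 and 5.15 CPM, against 3.25, 3.18 and 3.13 CPM (0.82 ± 0.15, adjusted p = 0.00241). Tnfrsf13c lay at 9.78, 10.3 and 9.08 CPM with curdlan, against 7.04, 7.10 and 5.61 CPM without it (0.56 ± 0.17, adjusted p = 0.0348), and this call was lost without any of the 6 WT libraries in turn, with adjusted p from 0.0578 to 0.126. With the replicate number as a block, 7 genes were higher and 3 lower in WT; the added ones were Prdm1, Fcrl1, Bach2 and Cd38, higher, and Bank1, Cd22 and Cd37, lower.

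In KO, Tnfrsf13c rose to 8.20, 6.89 and 12.2 CPM with curdlan, against 5.33, 4.96 and 5.03 CPM without it (0.83 ± 0.17; edgeR, adjusted p = 0.00416). Siglecg rose to 40.7, 32.5 and 39.4 CPM, against 22.4, 26.6 and 21.1 CPM (0.68 ± 0.11, adjusted p = 0.000641). Spib fell to 1.93, 2.30 and 2.12 CPM, against 4.55, 3.76 and 3.30 CPM (-0.87 ± 0.15, adjusted p = 0.00106). In all 3 genes the libraries with curdlan did not overlap those without it.

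The change with curdlan differed between genotypes for 2 of the 30 genes: 1 higher in KO, against 1.61% of all tested genes, and 1 lower, against 3.6%. Siglecg changed by 0.68 ± 0.11 in KO and by -0.06 ± 0.11 in WT, a difference of 0.74 ± 0.15 on the log2 scale (edgeR, adjusted p = 0.0183). Spib changed by -0.87 ± 0.15 in KO and by 0.19 ± 0.12 in WT, a difference of -1.06 ± 0.19 (adjusted p = 0.0109). The Siglecg difference missed the threshold without KO unstimulated library 1 (adjusted p = 0.0583), without WT unstimulated library 1 (0.0572) and without WT curdlan library 2 (0.0539).

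**Figure D3:**
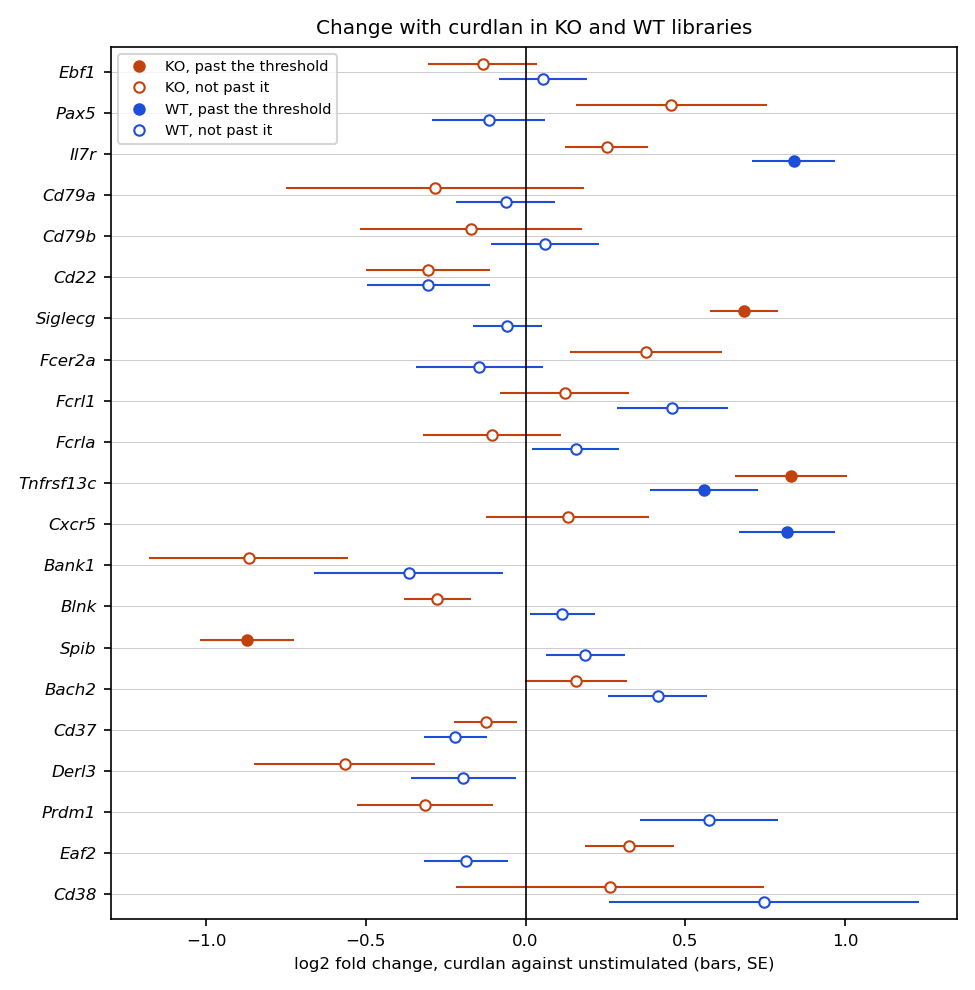
Log2 fold change with curdlan against unstimulated cells, with its SE, for the 21 tested genes that had 10 or more reads in every group, with KO above WT in each row; filled points passed the adjusted threshold of 0.05. Filled points are Siglecg, Tnfrsf13c and Spib in KO and Il7r, Tnfrsf13c and Cxcr5 in WT, and the KO and WT points lie furthest apart for Spib.

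Prdm1 and Il7r did not pass the test of the difference but carried the next lowest adjusted p-values among the 30 genes. Prdm1 changed by -0.32 ± 0.21 in KO and by 0.57 ± 0.22 in WT, a difference of -0.89 ± 0.30 (edgeR, adjusted p = 0.0968). Il7r changed by 0.25 ± 0.13 in KO and by 0.84 ± 0.13 in WT, a difference of -0.59 ± 0.18 (adjusted p = 0.0783). Both differences passed with DESeq2 (adjusted p = 0.0356 for Prdm1 and 0.0303 for Il7r). Both also passed with the replicate number as a block within genotype, at -0.98 for Prdm1 (adjusted p = 0.000199) and -0.46 for Il7r (adjusted p = 0.00426). The KO states share numbers 2 and 5 alone, so every blocked change in KO rests on those 2 pairs. Bank1, at 1.53, 1.77 and 3.12 CPM with curdlan in KO libraries 2, 4 and 5 against 4.29, 2.26 and 4.999 CPM without it in KO libraries 1, 2 and 5, changed by -0.87 ± 0.31 (adjusted p = 0.0541). It passed with DESeq2 (adjusted p = 0.0225), without a filter (0.037), by library size alone (0.0149) and with the replicate block (-0.63, adjusted p = 0.00979). It also passed without KO unstimulated library 2 (0.0113), WT unstimulated library 2 (0.049) or KO curdlan library 5 (0.0137).

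**Figure D4:**
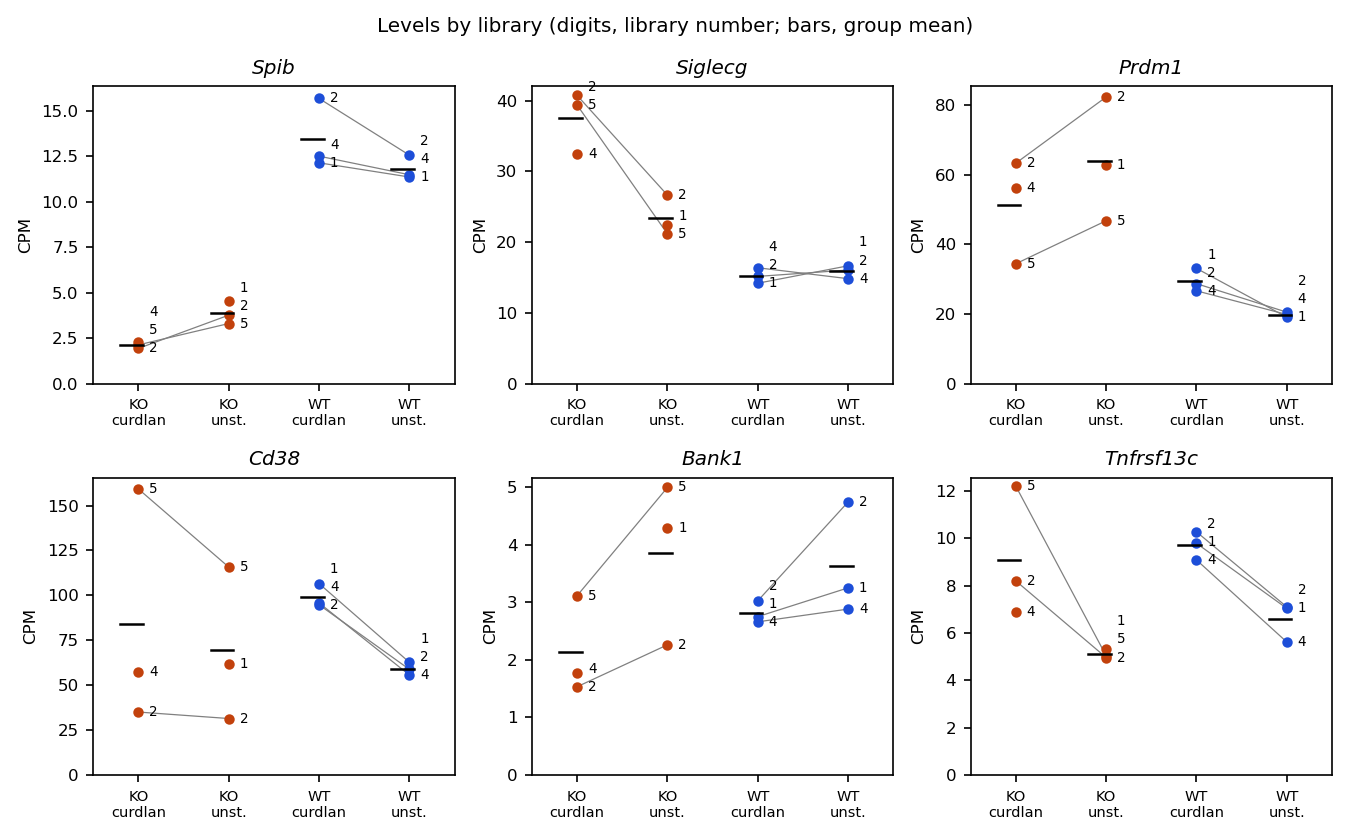
CPM of 6 genes in each library, with digits giving the library number beside each point, lines joining libraries of a genotype that share a number, and short bars giving group means; KO groups stand left of WT groups, and curdlan left of unstimulated. Cd38 and Bank1 are higher in KO library 5 than in KO library 2 in both states, whereas Spib and Siglecg separate all KO libraries with curdlan from those without it.

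Other genes of the same pathways gave a mixed picture. For this and the later lists, the shares of all tested genes were 21.1% higher and 23.3% lower in KO without curdlan. With curdlan they were 24.7% higher and 26.8% lower. No list was tested against these shares. Of 18 genes of B cell receptor signalling, 9 were higher and 4 lower in KO without curdlan, and 7 higher and 6 lower with it, with medians of 0.17 and 0.11 on the log2 scale. The Src-family kinase Blk, which B cells use, had 1 read in unstimulated KO libraries and 472 in WT, and 2 and 491 with curdlan. Cd40, a costimulatory receptor that B cells and dendritic cells share, averaged 171 CPM in unstimulated KO and 17.1 CPM in WT libraries and rose by 3.32 ± 0.35.

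Of 18 other transcription factors of the lineage, 6 were higher and 2 lower in KO without curdlan, and 5 higher and 4 lower with it. Ikzf3, the lymphoid factor Aiolos, averaged 0.797 CPM in unstimulated KO and 5.85 CPM in WT libraries and fell by 2.86 ± 0.20. Tcf3, which encodes the E2A proteins, fell by 0.59 ± 0.07 without curdlan, and Irf4, a factor of plasma cells and dendritic cells, fell by 0.68 ± 0.16 with it. Id3, an inhibitor of E proteins, rose by 1.22 ± 0.10 without curdlan and by 1.03 ± 0.10 with it.

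Of 21 tested genes of the plasma cell and secretory pathway list, 3 were higher and 9 lower in KO without curdlan, and 0 were higher and 10 lower with it. Jchain, which joins polymeric IgM and IgA and is also known from some dendritic cells, had 7 reads in KO and 14543 in WT libraries without curdlan, where WT libraries 1, 2 and 4 held 91.1, 78.5 and 59.6 CPM. With curdlan it had 7 and 11180 reads. The general folding and secretion genes moved by less: Txndc5, a disulfide isomerase, fell by 0.49 ± 0.06 without curdlan and by 0.63 ± 0.06 with it, and Herpud1, a stress-induced gene, rose by 0.72 ± 0.16 without curdlan. Of 17 tested other mature B cell markers, most also made by dendritic cells, 8 were higher and 3 lower without curdlan and 10 higher and 2 lower with it, and the 4 with the largest folds without curdlan were Cd83 (2.34 ± 0.13), the class II transactivator gene Ciita (1.85 ± 0.18), the lymphotoxin gene Ltb (1.68 ± 0.14) and the costimulatory gene Cd86 (1.62 ± 0.11).

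Markers of other cells moved between the same groups. All 14 macrophage markers were tested: 11 were higher and 0 lower in KO without curdlan, 10 higher and 1 lower with it, and their summed level ran from 9334 to 10935 CPM in unstimulated KO libraries and from 2849 to 3164 CPM in unstimulated WT libraries. Of 14 neutrophil markers, 12 were higher and 0 lower in each state, and of 9 tested mast cell and basophil markers 8 were higher and 0 lower in each state. Of 14 conventional dendritic cell markers, 6 were higher and 4 lower in KO in each state. The 4 largest folds without curdlan, past the threshold and at a mean of at least 1 CPM, were Clec9a, Cd209a, H2-Eb1 and H2-Ab1. Clec9a averaged 0.176 CPM in unstimulated KO and 9.33 CPM in unstimulated WT libraries and fell by 5.70 ± 0.36 on the log2 scale. The others rose by 4.10 ± 0.56, 1.53 ± 0.12 and 1.35 ± 0.12. The part of these shifts in the B-lineage result was not tested.

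Markers of plasmacytoid dendritic cells, which share Spib, Mzb1, Tcf4 and other genes with B cells, were mixed: of 18, 9 were higher and 3 lower in KO without curdlan, and 9 higher and 4 lower with it. Their summed level ran from 919 to 1005 CPM in unstimulated KO and from 559 to 614 CPM in unstimulated WT libraries. The defining marker Siglech averaged 0.341 ± 0.067 CPM in unstimulated KO and 0.263 ± 0.046 CPM in unstimulated WT libraries, and did not pass the test in either state (edgeR, adjusted p = 0.364 and 0.116). Ccr9 averaged 0.484 ± 0.067 CPM in KO and 0.716 ± 0.10 CPM in WT without curdlan, and fell by 1.01 ± 0.23 with it (adjusted p = 0.00302). Bst2, which encodes the surface marker PDCA-1, averaged 141 ± 9.2 CPM in unstimulated KO and 69.6 ± 11 CPM in unstimulated WT libraries, and rose by 1.018 ± 0.15 without curdlan and by 1.47 ± 0.15 with it (adjusted p = 0.000126 and 7.89e-06). Pacsin1, with the largest fold of the list without curdlan, averaged 1.36 CPM in unstimulated KO and 11.5 CPM in WT libraries. The next 3 by size were Irf7, Klk1 and Tlr9, which rose by 2.77 ± 0.31, 2.25 ± 0.24 and 2.24 ± 0.29 without curdlan. Their part in the result was not tested.

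T cell markers were low in all groups, with sums from 22.3 to 28.9 CPM over 19 genes in unstimulated KO libraries and from 25.7 to 29.9 CPM in unstimulated WT libraries. Of the defining genes, Cd3e had 1 read in unstimulated KO and 5 in unstimulated WT libraries, Cd3g had 3 and 22, and Cd3d averaged 0.925 ± 0.12 and 0.722 ± 0.049 CPM. Of 12 tested T cell markers, 2 were higher and 4 lower in KO without curdlan, and 3 higher and 4 lower with it. Of 7 tested NK and innate lymphoid markers, 3 were higher and 2 lower without curdlan, and 2 higher and 2 lower with it. Of 10 tested lymphoid progenitor markers, 3 were higher and 3 lower without curdlan, and 2 higher and 2 lower with it. These small counts were not tested against the shares of all tested genes. Those shares were 21.1% higher and 23.3% lower without curdlan, and 24.7% and 26.8% with it. The 2 largest log2 folds of each list without curdlan, past the threshold and at a mean of at least 1 CPM, went both ways or down. They were Lck (-2.80 ± 0.18) and Cd28 (2.57 ± 0.26) for T cells. For NK and innate lymphoid cells they were Gzmb (4.52 ± 0.25) and Klrk1 (-3.29 ± 0.22). Lymphoid progenitor markers gave Lax1 (-3.49 ± 0.26) and Sox4 (-1.54 ± 0.22).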

How the data were processed

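RNA of 12 libraries was sequenced as unstranded TruSeq libraries on a HiSeq instrument, per the labels. The authors deposited whole-number read counts per gene, not normalized; the submitters' processing notes name DESeq2 1.8.2, featureCounts 1.4.6, SAMtools 1.2, TopHat2 (written as 2.4.2a) and FastQC 0.11.1. Not given in the sources used here: genome build, gene models, strand setting and handling of multiply matching reads. The authors' deposited comparison table, KO over WT under curdlan, holds log2 fold changes and adjusted p-values, per the file headers; its 18 columns of normalized values per library, with those of a second table, were not used. The labels give curdlan at 200 mg/ml, a unit that could not be checked.

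Genes with too few counts were removed by filterByExpr by group, leaving 18981, and libraries were scaled by TMM. All 12 libraries entered 1 fit with a mean for each of 4 groups (edgeR 4.0.16 under R 4.3.3, quasi-likelihood F-test, two-sided), with Benjamini-Hochberg adjustment over all tested genes and a threshold of 0.05. CPM uses the scaled library sizes. Ratios of summed counts carry exact binomial 95% intervals, and folds against a group without a read are bounded at 3 counts, summed over that group; both cover counting error only. Coordinates, exon lengths and overlaps come from GENCODE M21 (GRCm38), matched by Ensembl identifier, and promoters from RefSeq.

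The 35 genes, their stages and 12 other gene lists were chosen with earlier results of these data known. Each of the 35 genes is described, with fold changes for those past the threshold or changing their call under an alternative, and up to 4 genes by size per other list. Other scalings, filters, DESeq2 1.42.0, limma-voom (limma 3.58.1), the 2 groups alone, a replicate block and leaving out each library were tried as alternatives. On simulated counts over 18981 genes for unstimulated KO against WT, 43 of 50 genes lowered by 1 log2 unit and 48 of 50 lowered by 2 were called. The changed genes were drawn from better-counted genes alone, so these rates do not cover sparse genes such as Vpreb3, Cr2 and Fcamr. Deviations of WT libraries of the same number correlated across states at 0.395, 0.239 and 0.129 for numbers 1, 2 and 4. Unlike WT numbers gave -0.29 to 0.082. The KO states share 2 numbers (0.287 and 0.557), and unlike KO numbers gave -0.47 to 0.246. KO and WT libraries of the same number gave -0.151 to 0.189. WT curdlan columns numbered 1, 2 and 4 in the count table are numbered 4, 1 and 2 in the authors' comparison table. Chi-square per degree of freedom between replicates was 9.15 to 77.1, more than counting noise.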

Additional observations from a re-analysis of the deposited data

Results flagged for a closer look

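Siglecg was flagged because its change with curdlan differed between genotypes in a test of the difference itself. It changed by 0.68 ± 0.11 on the log2 scale in KO (SE, 3 libraries per group) and by -0.06 ± 0.11 in WT, a difference of 0.74 ± 0.15 (edgeR, adjusted p = 0.0183). The 3 KO libraries with curdlan, at 40.7, 32.5 and 39.4 CPM, lay above the 3 without it, at 22.4, 26.6 and 21.1 CPM. The WT libraries held 14.2, 15.1 and 16.4 CPM with curdlan and 16.6, 16.0 and 14.8 CPM without it.

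Spib was flagged for the same reason, in the other direction. It changed by -0.87 ± 0.15 in KO and by 0.19 ± 0.12 in WT, a difference of -1.06 ± 0.19 (edgeR, adjusted p = 0.0109). The WT libraries held 12.1, 15.7 and 12.5 CPM with curdlan and 11.3, 12.5 and 11.5 CPM without it. The lane of each group cannot be told apart from genotype and state in either gene.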

How the results depend on the processing

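The counts of genes lower or higher in KO stayed within 1.5 times of those reported under every alternative run, from 21 to 22 lower without curdlan and from 19 to 21 lower with it when each library was left out. Library size alone in place of TMM shifted the median of all genes by -0.18 (KO against WT without curdlan), -0.25 (with curdlan), -0.20 (curdlan in KO) and -0.13 (curdlan in WT) on the log2 scale. With curdlan, that setting called Fcer2a (-0.61, edgeR adjusted p = 0.0325) and Il7r (-0.34, adjusted p = 0.0445) lower in KO. Leaving out KO curdlan library 5, Tnfrsf13c was called lower in KO without curdlan (-0.33, adjusted p = 0.0245) and with it (-0.36, adjusted p = 0.026).

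The counts for curdlan depended more on the setting. In KO, genes lower numbered 4 by library size alone, 2 without a filter, 2 with DESeq2, 4 with the replicate block and 1 to 2 without each library in turn, and genes higher numbered 4 with the replicate block. In WT, genes higher numbered 5 with DESeq2, 7 in the 2 groups alone, 7 with the replicate block and 2 to 5 without each library, and genes lower numbered 1 by library size alone and 3 with the replicate block. For the difference, genes lower numbered 3 with DESeq2, 5 with the replicate block and 1 to 3 without each library, and genes higher 0 to 1 without each library. The causes were not tested.

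KO and WT libraries of the same number did not deviate together, so the numbers do not pair the genotypes. With that number as a block, Cd22 was called higher in KO without curdlan (0.28, adjusted p = 0.0303) and with it (0.41, adjusted p = 0.00427), Tnfrsf13c lower without curdlan (-0.55, adjusted p = 0.00473) and Cd38 lower with curdlan (-0.95, adjusted p = 0.00119).

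Values that changed sign belonged to genes that did not pass. For KO against WT with curdlan, Il7r was 0.0048 with the replicate block and Cd22 was -0.017 by library size alone. Leaving out each library in turn gave ranges of -0.030 to 0.35 for Cd22, -0.36 to 0.060 for Tnfrsf13c and -1.10 to 0.12 for Cd38 in that comparison. The same range for Cd38 was -0.60 to 0.84 for curdlan in KO and -1.38 to 0.092 for the difference between genotypes. The cause was not tested. Reads limit what can be said of Rag1, Rag2, Dntt, Vpreb1 and Igll1, each with 18 or fewer reads in any group.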
